A study of Mus musculus with 22 samples.

Results

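Markers of cerebellar cells other than granule cells were followed in cultures of granule cells from postnatal day 7 mice. The list held 44 genes of the 18194 on the array: 11 astrocyte genes, 9 of the oligodendrocyte lineage, 8 of microglia, 7 of fibroblasts and pericytes, 3 endothelial genes, 4 of GABAergic interneurons and 2 of Purkinje cells. They were chosen by symbol as markers of these cells, and each was read from its brightest probe set over all 22 arrays. A filter on dim genes (mean level of at least 6.44 on the log2 scale) left 10772 genes for testing, among them 34 of the 44 markers. The 10 that were not tested were Gdf10, Mog, C1qc, Cx3cr1, Aif1, Rgs5, Pecam1, Cldn5, Pvalb and Pcp2.

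The study asked how the chromatin remodeller Chd7 and type II DNA topoisomerases act in granule neurons, and its arrays form 3 comparisons of 2 groups. Chd7 mutant cells (n = 4), in which the study's methods describe a floxed Chd7 deleted by Cre from the Atoh1 promoter, were set against Chd7 control cells that carried the floxed alleles without Cre and are labelled wild type (n = 4). Atoh1 marks the granule lineage, so Cre was not directed to most of the cells whose markers are described here. ICRF-193 blocks type II topoisomerases, and cells that received 10 µM of it over 12 h (n = 4) were compared with cells that received its solvent DMSO (n = 4). The third comparison took cultures with an agent labelled Smo2 (n = 3) and cultures lacking it (n = 3). The study describes arrays of granule cells cultured with and without a Smoothened agonist, which switches on hedgehog signalling. It calls the cells with the agonist proliferating progenitors and those without it postmitotic neurons. Whether Smo2 refers to this agonist is not stated in the labels. All pups were labelled C56Bl6/J, and the cells had been enriched on a density gradient. The labels call the arrays of a group biological replicates without naming animals or cultures, so p-values measure only the spread between these arrays.

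The developing cerebellum holds, beside granule cells, astrocytes and Bergmann glia that clear glutamate and support neurons, oligodendrocyte precursors that mature into myelin-forming cells, and microglia, the resident immune cells that prune and engulf. Fibroblasts of the meninges, pericytes and endothelial cells form its coverings and vessels, and interneurons and Purkinje cells are its GABAergic neurons. A culture enriched for granule cells can carry any of these, and in bulk RNA fewer cells of a type and less RNA per cell cannot be told apart. Nor does bulk RNA show which cells a marker's signal came from, the granule cells included.

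Promoter sequences of 7 markers are shown because they belong to classes in which several genes were called together and, within the astrocyte and oligodendrocyte classes, in opposite directions with Smo2. They are the 250 bases before the RefSeq start of the gene (GRCm38.p6), and 29 of the 44 markers had such a window. Capitals mark exact matches to a short motif on either strand. For the oligodendrocyte genes it is ACAAAG, the core bound by Sox factors. For the microglial genes it is GAGGAAG, a sequence bound by the myeloid factor PU.1. For the astrocyte genes it is TTGGC, the half-site of nuclear factor I. Shorter or variant sites were not searched for, so a window without capitals may still hold them. The windows lie at chr11:100574689-100574938 (plus strand), chr5:75152001-75152250 (plus strand), chr1:171234350-171234599 (minus strand), chr4:136886201-136886450 (minus strand), chr10:56377050-56377299 (plus strand), chr10:57784673-57784922 (plus strand) and chr10:76253586-76253835 (plus strand).
Cnp: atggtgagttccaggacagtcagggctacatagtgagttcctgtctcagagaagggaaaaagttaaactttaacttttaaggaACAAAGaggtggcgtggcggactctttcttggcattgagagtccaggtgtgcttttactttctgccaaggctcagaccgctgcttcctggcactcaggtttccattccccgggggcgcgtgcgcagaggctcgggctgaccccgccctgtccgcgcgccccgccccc
Pdgfra: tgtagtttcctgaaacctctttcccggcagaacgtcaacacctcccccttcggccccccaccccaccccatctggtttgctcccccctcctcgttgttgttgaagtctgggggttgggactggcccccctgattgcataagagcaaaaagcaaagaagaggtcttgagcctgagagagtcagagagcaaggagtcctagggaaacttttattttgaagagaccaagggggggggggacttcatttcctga
Fcer1g: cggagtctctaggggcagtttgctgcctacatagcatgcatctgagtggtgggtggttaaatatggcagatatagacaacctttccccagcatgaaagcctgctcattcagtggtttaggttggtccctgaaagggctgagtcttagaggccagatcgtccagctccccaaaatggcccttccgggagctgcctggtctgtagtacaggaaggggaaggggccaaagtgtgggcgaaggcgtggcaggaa
C1qb: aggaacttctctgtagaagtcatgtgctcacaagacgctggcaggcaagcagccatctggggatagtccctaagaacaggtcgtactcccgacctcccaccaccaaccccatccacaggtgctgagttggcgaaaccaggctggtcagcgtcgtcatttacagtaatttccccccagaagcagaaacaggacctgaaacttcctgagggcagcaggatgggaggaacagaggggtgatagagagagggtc
Gja1: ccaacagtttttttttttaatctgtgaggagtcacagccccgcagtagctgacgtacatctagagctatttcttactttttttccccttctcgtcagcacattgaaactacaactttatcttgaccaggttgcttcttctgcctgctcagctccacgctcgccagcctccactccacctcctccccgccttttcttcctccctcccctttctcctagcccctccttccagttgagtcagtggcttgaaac
Fabp7: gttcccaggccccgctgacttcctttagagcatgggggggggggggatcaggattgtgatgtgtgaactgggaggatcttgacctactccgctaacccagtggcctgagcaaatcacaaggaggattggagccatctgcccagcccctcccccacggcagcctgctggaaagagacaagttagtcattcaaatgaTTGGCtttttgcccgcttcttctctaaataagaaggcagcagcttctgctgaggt
S100b: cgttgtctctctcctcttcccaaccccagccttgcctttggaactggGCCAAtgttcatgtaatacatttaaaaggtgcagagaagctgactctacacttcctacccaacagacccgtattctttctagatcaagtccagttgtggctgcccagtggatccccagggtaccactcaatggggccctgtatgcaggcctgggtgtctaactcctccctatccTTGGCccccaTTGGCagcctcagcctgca
ACAAAG stood in the window of 1 of 5 oligodendrocyte lineage genes, Cnp, at position -167 from the start, and in 16.5% of all 27025 windows. GAGGAAG stood in 1 of 5 microglial windows, that of C1qc, against 10.4% of all windows. TTGGC stood in 5 of 9 astrocyte windows, among them Fabp7 at position -55, against 41.9% of all windows. It was in windows of genes that fell with Smo2 (Fabp7, S100b) and of genes that rose (Slc1a2, Glul, not printed). Gja1, which rose, and Gfap, Slc1a3 and Aldh1l1, which fell, lacked it. Among the printed astrocyte windows alone, the motif was in Fabp7 and S100b, which fell, and not in Gja1. Over printed and unprinted astrocyte windows together, its presence followed no rule of direction. These matches are descriptions of the letters in the window and no more.

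All values are log2 signal intensities after quantile normalization, and 4 is the floor set on dim signals. Changes were tested two-sided with limma and adjusted by Benjamini-Hochberg over the 10772 genes, and a gene was called at an adjusted p under 0.05. The granule lineage itself stood high on every array. The mean of 17 granule lineage genes, such as Neurod1, Zic1 and Pax6, lay between 11.76 and 12.39. Of a pair of Chd7 probe sets, one fell to 9.47 ± 0.54 in mutant arrays, against 11.50 ± 0.23 in control arrays (SD, n = 4 each, limma adjusted p = 0.00342 when all probe sets were fitted). The brighter of the pair was at 11.65 ± 0.25 in the mutant and 11.89 ± 0.13 in control (adjusted p = 0.299, fitted likewise).

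Before the comparisons, the arrays of the Chd7 and ICRF-193 experiments fell into pairs for these markers. For most markers replicates 1 and 2 of a group resembled each other, as did replicates 3 and 4. Arrays differed more between than within pairs for 31 of 34 markers in the mutant and 30 in control. With ICRF-193 this held for 21 and with DMSO for 26. Glial and fibroblast class means shifted the same way in both groups of an experiment. Interneuron means did not, going from 9.17 to 9.09 in Chd7 control and from 8.56 to 9.39 in the mutant. In Chd7 mutant arrays the 34 tested markers differed by a median of 0.12 within these pairs and by 0.95 between them, and in control arrays by 0.14 and 1.16. Over all genes the same medians were 0.11 and 0.17 in mutant arrays and 0.11 and 0.13 in control arrays. The pairs differed less in the other experiment, where the markers moved by 0.30 within and 0.58 between pairs with ICRF-193, and by 0.23 and 0.61 with DMSO. In Chd7 control cells the mean of 8 oligodendrocyte lineage genes was 9.51, 9.49, 8.25 and 8.42 on replicates 1 to 4, while the mean of 5 microglial genes was 7.68, 7.85, 9.48 and 9.55. Oligodendrocyte markers were thus high where microglial markers were low.

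**Figure D1:**
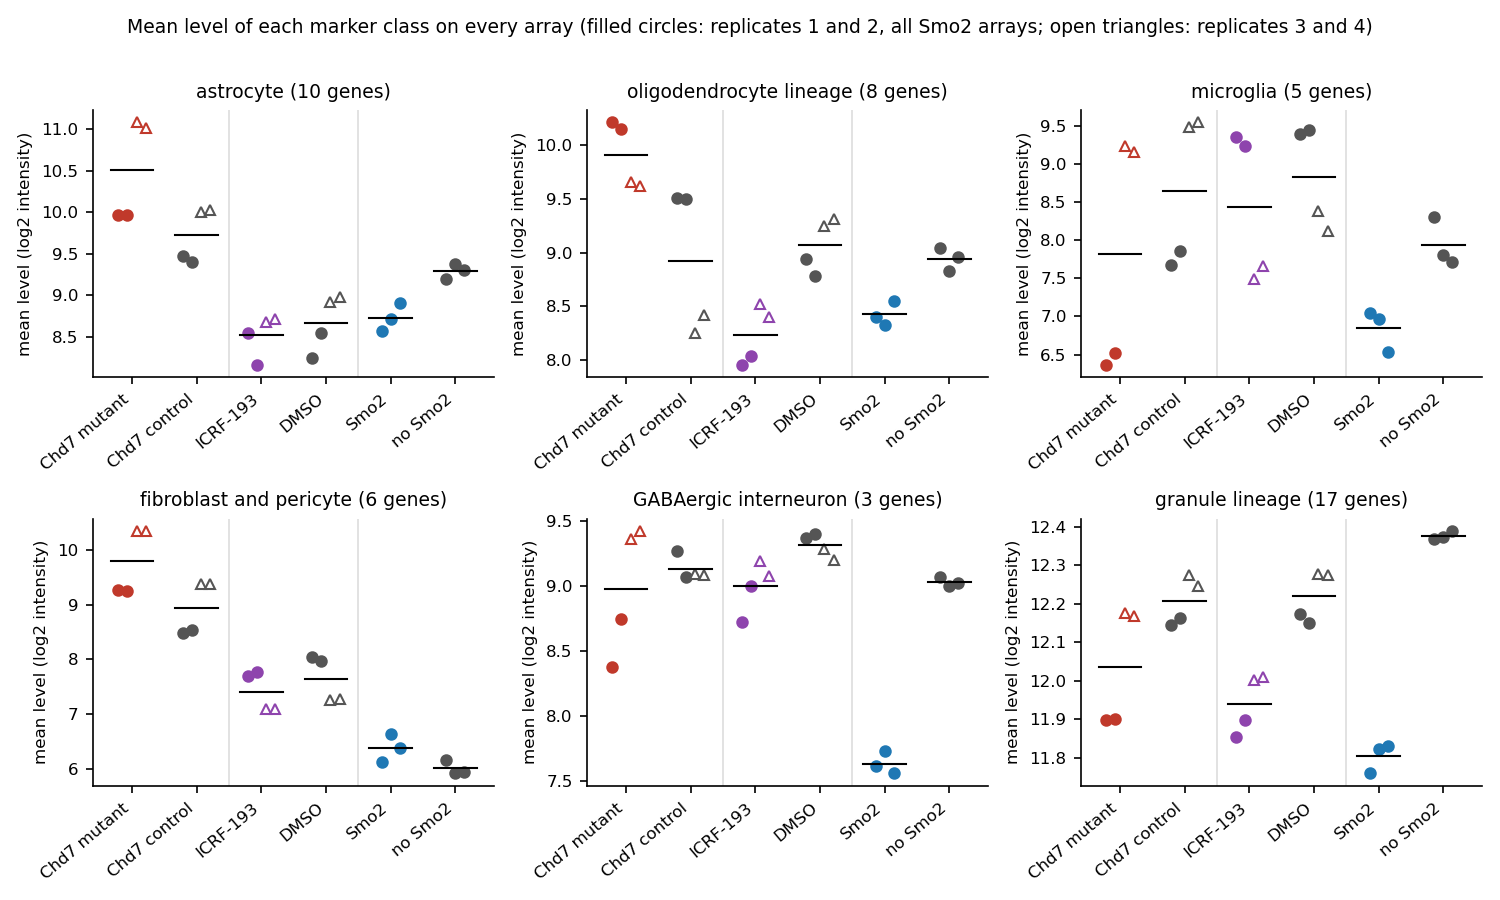
Mean log2 intensity of the tested genes of each marker class on every array, by group along the horizontal axis; points are arrays, lines are group means, and open triangles are replicates 3 and 4 of the Chd7 and ICRF-193 experiments. Microglial means split by replicate pair in the Chd7 and ICRF-193 experiments, and granule lineage means stayed between 11.76 and 12.39 on all 22 arrays.

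In Chd7 mutant cultures, several glial and fibroblast markers were higher than in control, and 0 of the 34 tested markers were called lower by limma (2 had an unadjusted p under 0.05 in that direction). Astrocyte, oligodendrocyte lineage and fibroblast genes had median changes of 0.79, 1.07 and 0.83, beside 0.0047 over all tested genes, and microglial genes a median of -0.92 with 0 of 5 called. The genes called higher were Gja1 and Scrg1 (astrocyte), Pdgfra (oligodendrocyte lineage), and Dcn and Pdgfrb (fibroblast and pericyte). They make 5 of 34 or 14.7%, where 5.07% of all genes were called higher and 3.82% lower. The groups did not overlap for 9 of the 34 markers, against 19.6% of all genes, and 8 of these were higher in the mutant. With each array centred on its median, 391 genes were called higher and 551 lower in place of 546 and 412, and of the markers 5 and 1.

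Among astrocyte genes, Gja1, the main gap junction protein of astrocytes, had 11.43, 11.33, 11.90 and 11.63 on the mutant arrays, against 10.63, 10.43, 10.97 and 10.82 on the control arrays. Every mutant array lay above every control array, and Gja1 rose by 0.86 ± 0.15 (SE, n = 4 each, adjusted p = 0.0133). Scrg1, a small secreted protein of glia, had 9.55, 9.58, 9.03 and 8.98 in the mutant, against 7.998, 8.07, 6.57 and 6.73 in control. It had the largest change of any tested marker in this comparison, 1.94 ± 0.37 (adjusted p = 0.0173), and both Scrg1 and Gja1 were called with any 1 of the 8 arrays left out. The other 8 tested astrocyte genes had changes of 0.06 (Glul) to 1.15 (Aldh1l1) and were not called, and Gdf10, a Bergmann glia gene that was too dim to test, had 5.77, 5.91, 8.77 and 8.64 in the mutant, against 6.08, 5.89, 6.63 and 6.08 in control.

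In the oligodendrocyte lineage, Pdgfra, the growth factor receptor of its precursors, had 11.02, 10.93, 11.62 and 11.66 in the mutant, against 9.97, 10.09, 10.53 and 10.54 in control. It rose by 1.02 ± 0.21 (adjusted p = 0.0236). Meningeal fibroblasts also carry Pdgfra, so it is not a marker of this lineage alone. Cnp, an enzyme of myelin-forming cells, had 12.64, 12.56, 11.82 and 11.75 in the mutant, against 11.42, 11.56, 9.77 and 9.92 in control, a change of 1.52 ± 0.46 that did not pass (adjusted p = 0.0772). Mbp, myelin basic protein, had 13.72, 13.72, 13.25 and 13.22 in the mutant, against 13.08, 13.07, 11.43 and 11.29 in control, a change of 1.26 ± 0.44 (adjusted p = 0.115). With every probe set fitted, at least 1 Mbp probe set was called higher. Olig1, a transcription factor of the lineage, had 9.81, 9.48, 8.93 and 8.95 in the mutant, against 8.90, 8.69, 7.32 and 7.84 in control, a change of 1.11 ± 0.37 (adjusted p = 0.100). For all 3 the groups did not overlap, and the differences between replicate pairs of the same group were of the order of the change. Olig2, Gpr17 and Sox10 had changes of 1.37, 0.85 and 0.86, and Cspg4, a proteoglycan of precursors and pericytes, had -0.07. Mog, a late myelin gene, was close to the floor throughout, with 4.00 to 5.57 in the mutant and 4.00 to 5.13 in control.

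Among fibroblast and pericyte genes, Dcn, the matrix proteoglycan decorin, had 11.16, 11.20, 10.44 and 10.49 in the mutant, against 9.79, 9.90, 9.05 and 8.56 in control, and rose by 1.496 ± 0.33 (adjusted p = 0.0283). Pdgfrb, a receptor of pericytes and fibroblasts, had 8.98, 8.53, 8.98 and 8.99 in the mutant, against 7.77, 7.77, 8.33 and 8.37 in control, and rose by 0.81 ± 0.18 (adjusted p = 0.0295). The collagen genes Col1a1, Col1a2 and Col3a1 and the proteoglycan gene Lum had changes of 0.40 to 0.87 and were not called. Rgs5, a pericyte gene, was not tested and had 6.87 ± 0.36 in the mutant and 6.88 ± 0.39 in control.

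The calls of Pdgfra, Dcn and Pdgfrb did not hold with every array left out. Pdgfra was lost without control replicate 1 or 2 or mutant replicate 3 or 4 (adjusted p = 0.0542 to 0.0661), Dcn without control replicate 3 or 4 or mutant replicate 1 or 2 (0.0512 to 0.0758), and Pdgfrb without control replicate 1 or 2 or mutant replicate 1, 3 or 4 (0.0689 to 0.0781). Deviations of same-numbered arrays were correlated, and with the replicate number as a block 17 markers were called higher and 2 lower, where 7.95% and 5.15% of all genes were. The block added Slc1a3, Aldh1l1, S100b, Olig1, Olig2, Sox10, Cnp, Mbp, Gpr17, Col1a2, Col3a1 and Lum to the 5 (adjusted p = 0.00455 for S100b to 0.0484 for Sox10), and, in the other direction, Tyrobp (adjusted p = 0.0415) and Fcer1g (adjusted p = 0.0109). With the mean of each replicate pair as 1 sample, so 2 against 2, 0 of the 34 were called in either direction. The same fit called 0 genes higher and 0 lower among all genes tested, so it cannot tell the markers apart from other genes.

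**Figure D2:**
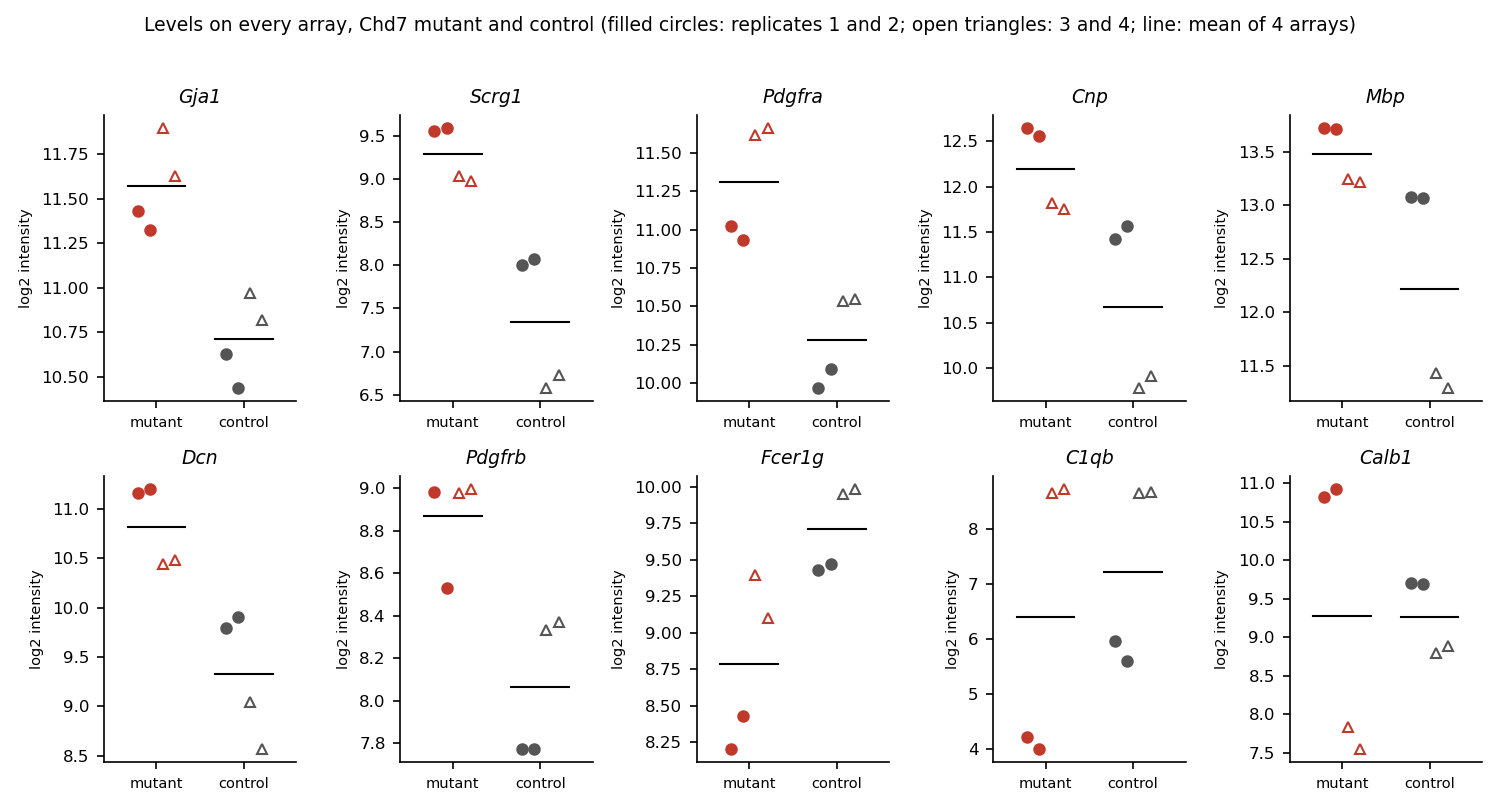
Log2 intensity of 10 markers on each of the 4 mutant and 4 control arrays, with the mean as a line; filled circles are replicates 1 and 2, open triangles replicates 3 and 4. Gja1, Scrg1, Pdgfra, Cnp, Mbp, Dcn and Pdgfrb lie higher on every mutant array than on any control array, Fcer1g lower, and Calb1 lies on both sides of control.

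Microglial genes had lower means in the mutant, mostly in replicates 1 and 2. Fcer1g, the signalling chain of immune receptors, had 8.20, 8.43, 9.40 and 9.10 in the mutant, against 9.43, 9.47, 9.95 and 9.98 in control. The groups just missed each other, and the change of -0.92 ± 0.27 was not called (adjusted p = 0.0749), though it was without mutant replicate 3 (-1.13, adjusted p = 0.0418) and with each array centred on its median. Tyrobp, the adaptor of microglial surface receptors, had 7.93, 8.47, 9.69 and 9.53 in the mutant, against 9.60, 9.55, 10.15 and 10.19 in control. Csf1r, the receptor on which microglia depend for survival, had 7.47, 7.73, 9.90 and 9.71 in the mutant, against 9.39, 9.34, 10.08 and 10.35 in control. The complement gene C1qb had 4.23, 4.00, 8.65 and 8.71 in the mutant, against 5.96, 5.60, 8.65 and 8.66 in control, so it was at or near the floor on 2 mutant arrays and level with control on the other two. C1qa and C1qc, its partner subunits, were also at the floor on mutant replicates 1 and 2 and at 7.88 or above on replicates 3 and 4, and control replicate 1 was at the floor for both. Aif1 had 4.00, 4.00, 6.82 and 7.22 in the mutant, against 6.02, 6.09, 7.76 and 7.78 in control. Cx3cr1, the fractalkine receptor, did not exceed 6.29 on any of the 8 arrays.

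The tested interneuron, Purkinje and endothelial markers, 5 in all, gave no call. Gad1, which makes GABA, had 11.62 ± 0.29 in the mutant and 11.64 ± 0.04 in control, and Gad2 and the vesicular GABA transporter gene Slc32a1 had changes of -0.14 and -0.30. Pvalb, the calcium buffer parvalbumin, was too dim over all arrays to be tested, and had 8.17, 8.35, 7.72 and 7.33 in the mutant, against 6.74, 6.93, 6.65 and 6.48 in control. The groups were apart by 1.19, and the gene passed in a fit without the filter (adjusted p = 0.0402). Kdr, a receptor for vascular growth factor, had a change of 0.02, Pecam1 and Cldn5 were not tested and stayed at or below 6.35 on these arrays, and Pcp2, a Purkinje cell gene, averaged 5.10 ± 0.56 in the mutant and 5.11 ± 0.89 in control.

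The change between mutant and control was itself different between replicate pairs for 9 of the 34 markers by a test of the interaction, where 2.62% of all genes were called. Calb1, the calcium buffer calbindin of Purkinje cells, had the largest such difference. It was at 10.83 and 10.92 on mutant replicates 1 and 2, against 9.70 and 9.69 in control, and at 7.83 and 7.54 on mutant replicates 3 and 4, against 8.80 and 8.88 in control. The change was 1.18 in the first pair and -1.15 in the second, a difference of -2.33 (adjusted p = 0.00165), and the mean change over 4 arrays was 0.01. Mbp changed by 0.64 and 1.87 (adjusted p = 0.00378 for the difference), Cnp by 1.11 and 1.94 (adjusted p = 0.0254) and Scrg1 by 1.53 and 2.35 (adjusted p = 0.0184), so these 3 went the same way in both pairs. Fabp7, a lipid-binding protein of Bergmann glia, changed by -0.12 and 0.99 (adjusted p = 0.0116), and the water channel gene Aqp4 by 0.00 and 1.07 (adjusted p = 0.0283). C1qb changed by -1.66 and 0.03 (adjusted p = 0.0120), Csf1r by -1.76 and -0.41 (adjusted p = 0.0212) and Slc32a1 by -0.83 and 0.23 (adjusted p = 0.0186). Gja1 changed by 0.85 and 0.87 (adjusted p = 0.971). The error in this test is the difference between arrays of a pair, which may be technical.

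**Figure D3:**
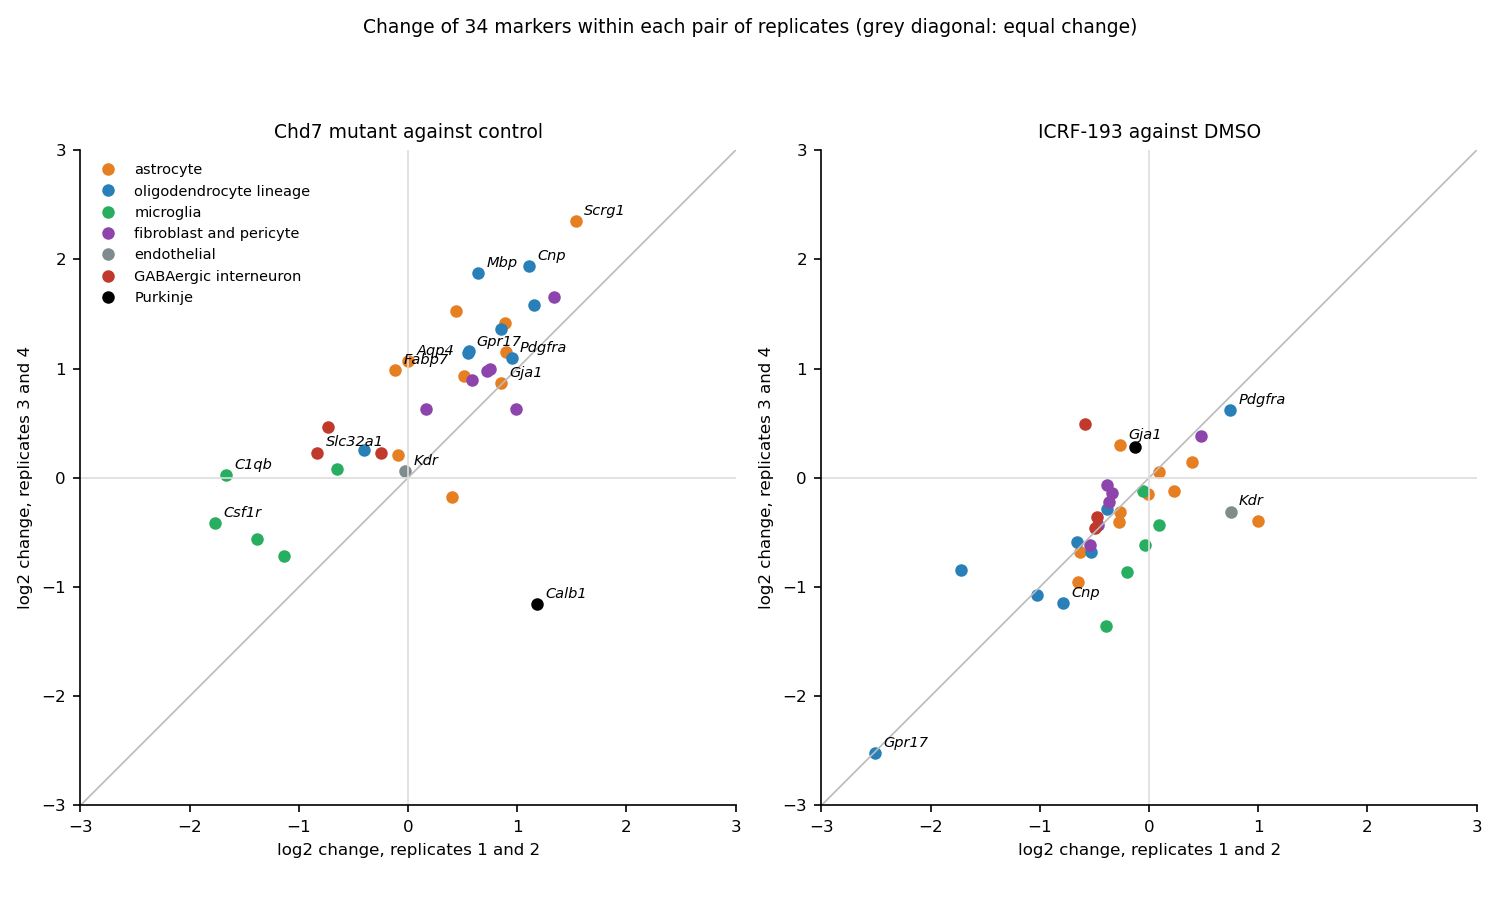
Log2 change of each of the 34 tested markers in replicates 1 and 2 (horizontal axis) and in replicates 3 and 4 (vertical axis), coloured by class, for Chd7 mutant against control and ICRF-193 against DMSO; the grey diagonal is equal change. Calb1 sits at 1.18 and -1.15 in the Chd7 comparison, and Gpr17 sits on the diagonal at -2.51 and -2.52 in the ICRF-193 comparison.

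Other genes moved with the mutant group as well. All 3 tested skeletal muscle genes of a list of 10, Acta1, Actc1 and Mylpf, were called higher, with a mean of 8.22, 8.31, 9.18 and 9.27 in the mutant, against 6.46, 5.96, 6.78 and 6.51 in control. All 3 tested Y-linked genes were called lower, with a mean of 6.81, 6.95, 4.23 and 4.00 in the mutant, against 9.03, 8.995, 8.53 and 8.38 in control. The study did not separate pups by sex. Folr1, 1 of 3 tested choroid plexus and ependymal genes, was called higher (0.84, adjusted p = 0.0103), and 3 of 17 granule lineage genes were called lower, with a mean over the list of 11.90 to 12.17 on mutant and 12.15 to 12.27 on control arrays. The part of these differences in the marker changes was not tested. Further markers of these cell types gave 1 of 5 Purkinje genes higher (Rora, 0.29) and 1 lower (Pcp4, -0.98), 1 of 2 unipolar brush cell genes lower (Eomes, -0.38), and 0 of 4 interneuron and 0 of 4 endothelial genes called. Of the glial and fibroblast lists, 1 of 9 astrocyte genes was higher (Acsl6), 0 of 7 oligodendrocyte lineage genes were called, 1 of 8 fibroblast and pericyte genes was higher (Acta2, a smooth muscle actin, 1.06) and 1 of 5 microglial genes was lower (Cd53, -0.57).

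With ICRF-193, genes of the oligodendrocyte lineage were lower in mean, with the exception of Pdgfra, and 2 of 8 were called. Of the 34 markers 0 were called higher by limma (2 at an unadjusted p under 0.05) and 3 lower, Gpr17, Cnp and Gad1, or 8.82%, where 3.14% of all genes were called higher and 3.46% lower. The median change of 8 oligodendrocyte lineage genes was -0.79, beside 0.0083 over all genes, -0.03 over astrocyte genes, -0.33 over microglial genes and -0.27 over fibroblast and pericyte genes. The groups did not overlap for 6 markers, against 14.3% of all genes.

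Gpr17, a receptor of differentiating oligodendrocyte precursors, had 5.85, 6.95, 6.40 and 7.06 with ICRF-193, against 9.15, 8.68, 9.25 and 9.24 with DMSO. It fell by 2.52 ± 0.27 (adjusted p = 0.000795), with changes of -2.51 in replicates 1 and 2 and -2.52 in replicates 3 and 4, and was called with any 1 array left out. Cnp had 9.15, 9.87, 9.60 and 9.53 with ICRF-193, against 10.27, 10.32, 10.70 and 10.72 with DMSO, and fell by 0.97 ± 0.17 (adjusted p = 0.0114). Olig2, a transcription factor that specifies the lineage, had 5.96, 4.89, 6.61 and 6.02 with ICRF-193, against 7.45, 6.83, 6.75 and 7.57 with DMSO. These values did not overlap, but the change of -1.28 ± 0.35 was not called (adjusted p = 0.0745). It passed without ICRF-193 replicate 3 (-1.53, adjusted p = 0.0420), and also with a floor of 64, with the replicate pair as a block and with all 6 groups in 1 fit, among other settings. Olig1, Sox10 and Mbp had changes of -1.05, -0.61 and -0.62, which were negative in both replicate pairs and not called.

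Pdgfra went the other way. It had 11.21, 11.84, 11.81 and 11.61 with ICRF-193, against 10.79, 10.78, 11.46 and 10.72 with DMSO, a change of 0.68 ± 0.20 that was not called (adjusted p = 0.0902). DMSO replicate 3 stood above the other DMSO arrays, and without it the change was 0.86 (adjusted p = 0.0224). Both dimmer Pdgfra probe sets rose, by 0.65 (adjusted p = 0.0222) and 1.14 (adjusted p = 0.00471), with all probe sets fitted. Among further markers of the lineage 5 of 7 tested were called lower, led by Lhfpl3 (-1.17), Myrf (-2.54), the transcription factor of myelin genes, Bcas1 (-1.31) and Cldn11 (-0.75), the tight junction protein of myelin.

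**Figure D4:**
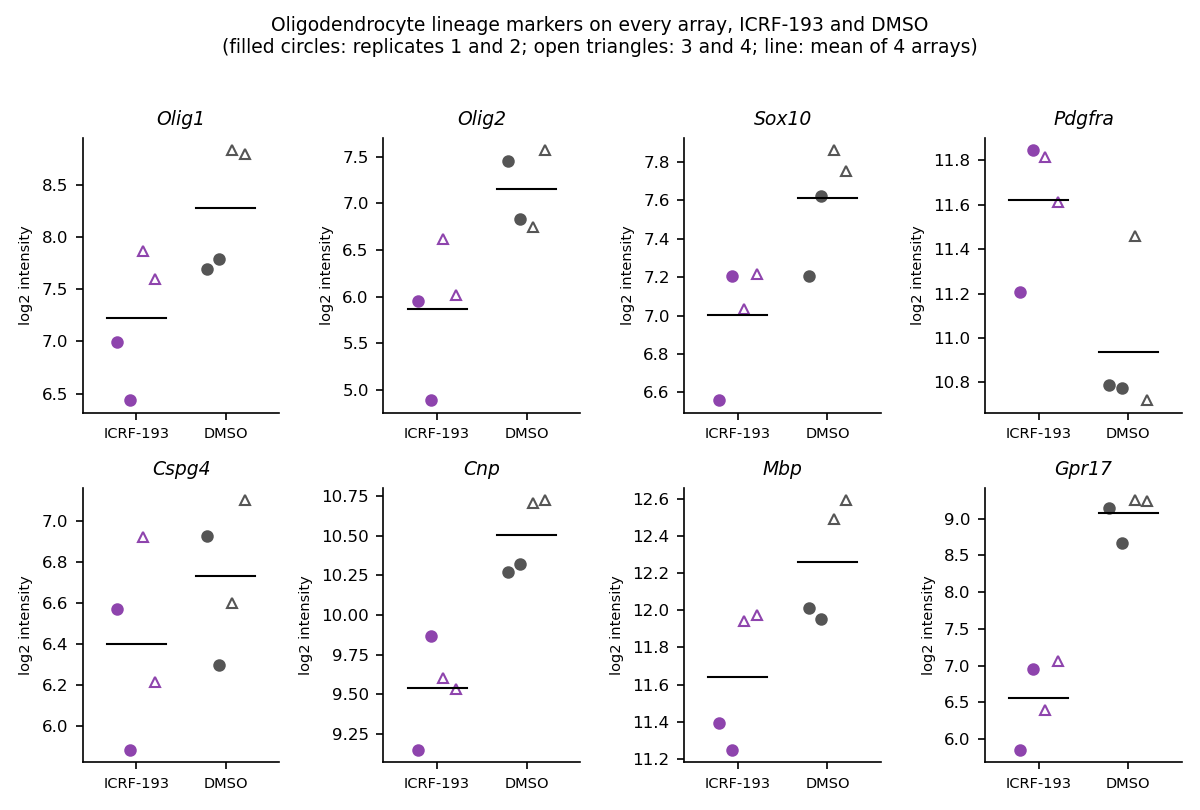
Log2 intensity of the 8 tested oligodendrocyte lineage markers on each of the 4 ICRF-193 and 4 DMSO arrays, with the mean as a line; filled circles are replicates 1 and 2, open triangles replicates 3 and 4. Gpr17, Cnp and Olig2 lie lower on every ICRF-193 array than on any DMSO array, and the mean of Pdgfra lies higher with ICRF-193.

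Outside this lineage, Gad1 had 11.56, 11.85, 11.77 and 11.74 with ICRF-193, against 12.12, 12.25, 12.20 and 12.03 with DMSO. Its fall of 0.42 ± 0.09 (adjusted p = 0.0243) was small and lost without DMSO replicate 1, 2 or 3 or ICRF-193 replicate 1, 3 or 4 (adjusted p = 0.0532 to 0.0693). Slc32a1 had a change of -0.47 and Gad2 of -0.05. S100b, a calcium-binding protein of astrocytes, and Dcn did not overlap between groups but were not called (-0.29 and 0.43). Microglial genes again followed the replicate pairs more than the treatment. Their mean was 9.35, 9.24, 7.49 and 7.65 with ICRF-193, against 9.39, 9.44, 8.38 and 8.12 with DMSO. Glul, glutamine synthetase, had a change of 0.27 and was called without DMSO replicate 4 (0.40, adjusted p = 0.0223), and Slc32a1 was called without ICRF-193 replicate 3 (-0.63, adjusted p = 0.0196). Of the 10 markers that were not tested, 0 were apart between these groups, and Cldn5, a tight junction protein of vessels, had the largest difference, with 6.78, 6.73, 7.59 and 7.43 with ICRF-193, against 6.14, 5.90, 6.74 and 6.29 with DMSO. Further markers gave 2 of 9 astrocyte genes higher and 1 lower (Slc4a4, -1.20), 1 of 8 fibroblast and pericyte genes higher (Islr, 0.93), and 1 of 2 unipolar brush cell genes higher (Eomes, 0.95). None of 5 microglial, 5 Purkinje, 4 interneuron and 4 endothelial genes was called. In the granule lineage 1 of 17 genes was called higher and 4 lower, and the list averaged 11.94 with ICRF-193 and 12.22 with DMSO. Its part in the marker changes was not tested.

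With the replicate number as a block 2 markers were called higher and 9 lower, where 4.28% and 4.51% of all genes were. Pdgfra (adjusted p = 0.0433) and Dcn (adjusted p = 0.0475) were called higher, and Olig1, Sox10, Mbp, Aqp4, Col1a2 and Slc32a1 joined the 3 called lower (adjusted p = 0.00473 for Mbp to 0.0463 for Slc32a1). With the means of replicate pairs as samples only Gpr17 was called, in a fit that called 15 genes higher and 45 lower of all 10772. No gene was called for a difference of the ICRF-193 change between replicate pairs (0% of 10772 by limma, and 584 at an unadjusted p under 0.05), and among the 34 markers 4 had an unadjusted p under 0.05.

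With Smo2, microglial and interneuron markers were lower, and astrocyte and oligodendrocyte lineage markers were called in both directions. Of the 34 markers 7 were called higher and 20 lower, or 20.6% and 58.8%, in a comparison where 29.7% of all genes were called higher and 39% lower. The groups did not overlap for 28 of them, against 73.5% of all genes. Microglial genes had a median change of -1.05 with 5 of 5 lower, interneuron genes -1.40 with 3 of 3 lower, and astrocyte and oligodendrocyte lineage genes -0.80 and -0.39 with genes called in both directions, beside -0.09 over all tested genes. With each array centred on its median instead, 4050 genes were called higher and 3221 lower in place of 3196 and 4197, the median of all genes was 0.05, and the markers still gave 7 higher and 20 lower.

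Among astrocyte genes, 3 rose and 7 fell. Gja1 had 9.83, 9.90 and 9.88 with Smo2, against 8.51, 8.15 and 8.28 without, and rose by 1.56 ± 0.10 (SE, n = 3 each, adjusted p = 3.29e-05). Slc1a2, the glutamate transporter GLT-1, had 10.00, 10.07 and 10.17 with Smo2, against 9.20, 9.26 and 9.45 without (0.78, adjusted p = 0.000346), and Glul had 11.62, 11.65 and 11.65 with Smo2, against 11.25, 11.37 and 11.31 without (0.33, adjusted p = 0.00185). Both genes belong to the uptake and recycling of glutamate. Slc1a3, the other astrocyte glutamate transporter, fell to 8.54, 8.63 and 8.85 with Smo2, against 9.20, 9.38 and 9.40 without (-0.66, adjusted p = 0.00145). Aqp4 had 8.55, 8.74 and 8.82 with Smo2, against 10.69, 10.99 and 10.80 without, the largest fall in the class (-2.12 ± 0.11, adjusted p = 1.48e-05). Gfap, the intermediate filament protein of astrocytes, had 6.46, 6.87 and 6.80 with Smo2, against 7.90, 7.95 and 7.91 without (-1.21, adjusted p = 0.000165). Slc1a3, Aqp4 and Gfap thus fell while Gja1 rose, with no overlap between groups for any of them. Aldh1l1, a folate enzyme used to mark astrocytes, had 7.24, 7.17 and 7.88 with Smo2, against 8.50, 8.79 and 8.55 without (-1.18, adjusted p = 0.00230). Fabp7 had 11.09, 11.23 and 11.35 with Smo2, against 11.93, 12.18 and 12.09 without (-0.85, adjusted p = 0.000377). Scrg1 had 5.20, 5.75 and 6.32 with Smo2, against 7.05, 7.60 and 7.04 without (-1.47, adjusted p = 0.00531). The fall of S100b was smaller, to 7.15, 7.10 and 7.43 with Smo2, against 7.74, 8.03 and 8.15 without (-0.75, adjusted p = 0.00322). Gdf10, not tested, averaged 5.98 ± 0.32 with Smo2 and 6.18 ± 0.23 without. Of 9 further astrocyte genes, 7 were lower, among them Slc4a4 (-1.66) and Mlc1 (-1.83), and 1 was higher, the transcription factor Sox9 (1.94).

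**Figure D5:**
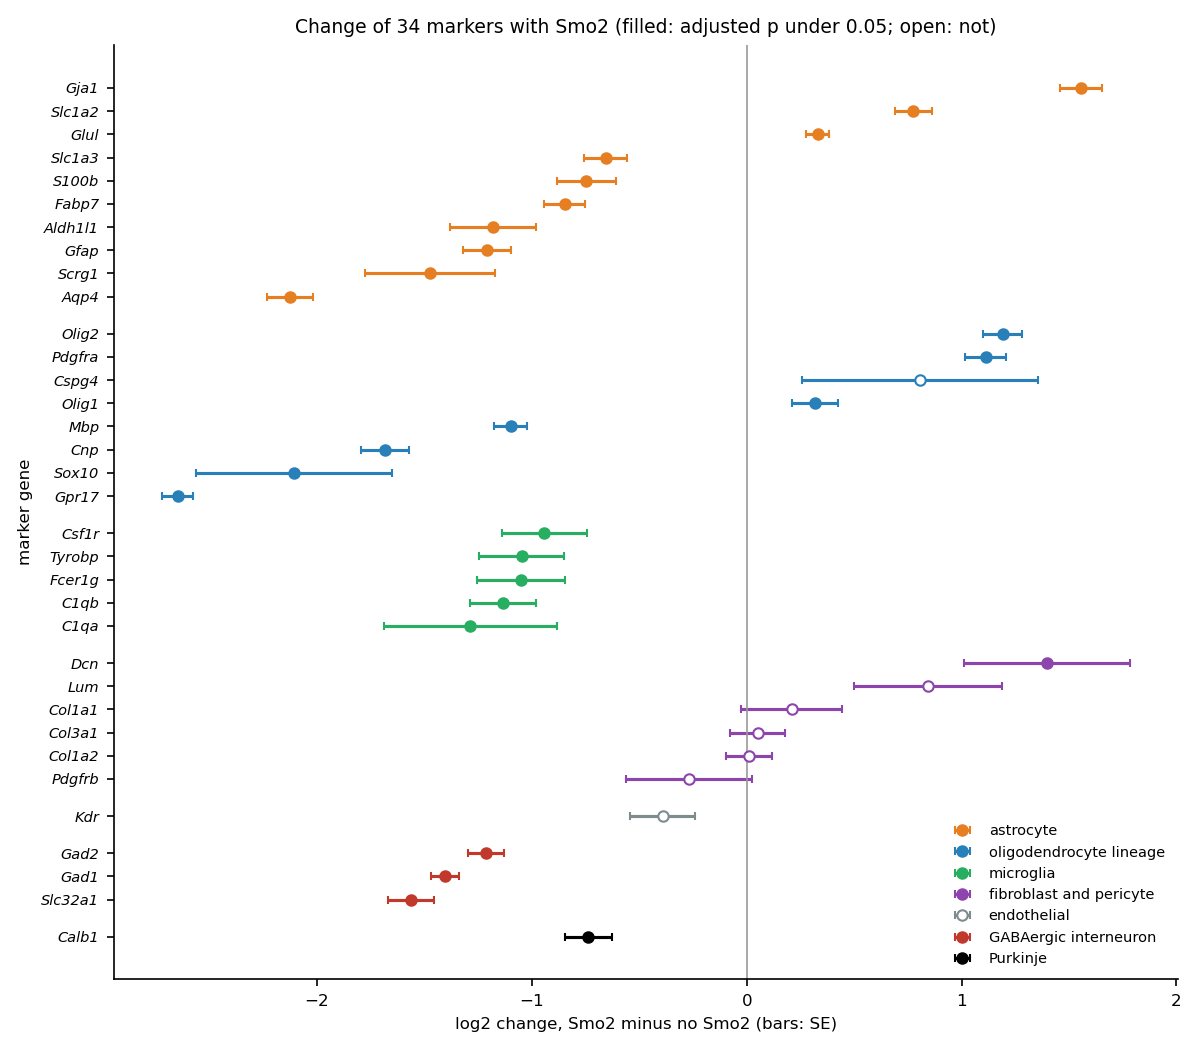
Log2 change of the 34 tested markers, Smo2 minus no Smo2, by class down the vertical axis, with standard errors (n = 3 each); filled points were called at an adjusted p under 0.05. All 5 microglial and all 3 interneuron genes lie below 0, and astrocyte and oligodendrocyte lineage genes lie on both sides.

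In the oligodendrocyte lineage, 3 of 8 tested genes rose, Pdgfra, Olig2 and Olig1, and 4 fell, Gpr17, Sox10, Cnp and Mbp. Pdgfra had 11.94, 11.92 and 12.01 with Smo2, against 10.78, 11.04 and 10.71 without (1.11 ± 0.09, adjusted p = 0.000112), and both other Pdgfra probe sets rose as well. Olig2 had 8.16, 8.30 and 8.30 with Smo2, against 7.10, 7.19 and 6.90 without (1.19 ± 0.09, adjusted p = 7.16e-05). Olig1 had 8.67, 8.46 and 8.67 with Smo2, against 8.11, 8.46 and 8.28 without, with a change of only 0.32 (adjusted p = 0.0390). That call was lost without no-Smo2 replicate 1 or 3 or Smo2 replicate 1 or 3 (adjusted p = 0.0868 to 0.109), and with the deposited scaling alone, the replicate number as a block or all 6 groups in 1 fit, among other settings. Gpr17 had 6.17, 6.31 and 6.13 with Smo2, against 8.88, 8.77 and 8.90 without, the largest fall of any tested marker here (-2.65 ± 0.07, adjusted p = 2.26e-06). Sox10, a transcription factor kept through the whole lineage, had 4.52, 4.27 and 5.93 with Smo2, against 7.47, 6.81 and 6.75 without (-2.11 ± 0.46, adjusted p = 0.00674), and so went against Olig2. Cnp had 9.35, 9.46 and 9.19 with Smo2, against 10.86, 11.20 and 10.99 without (-1.68 ± 0.11, adjusted p = 4.16e-05). Mbp had 11.66, 11.71 and 11.47 with Smo2, against 12.66, 12.71 and 12.76 without (-1.10 ± 0.08, adjusted p = 5.05e-05). Mbp had 8 probe sets that passed the filter, and they did not move together. The 5 others that fell did so by 0.68 to 1.20, and 2 rose, by 0.90 and 0.91 (adjusted p = 0.00205 and 0.00195 with all probe sets fitted). Cspg4 had a change of 0.81 ± 0.55 (adjusted p = 0.234), and Mog was near the floor in both groups. Of 7 further lineage genes 6 were called lower, with Nkx2-2 the farthest (-2.08).

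Microglial genes fell together in the main fit. With all 6 groups in 1 fit, Csf1r, Tyrobp, Fcer1g, C1qa and C1qb were not called, where 3799 of all genes were called lower. C1qb had 6.39, 6.81 and 6.60 with Smo2, against 7.95, 7.75 and 7.50 without (-1.13 ± 0.15, adjusted p = 0.000807). Tyrobp had 7.63, 7.43 and 6.92 with Smo2, against 8.58, 8.22 and 8.31 without (-1.05, adjusted p = 0.00367), and Fcer1g had 7.03, 6.90 and 6.48 with Smo2, against 8.21, 7.62 and 7.73 without (-1.05, adjusted p = 0.00420). In each of these 3 genes every Smo2 array lay below every array without it. Csf1r had 7.91, 7.40 and 7.21 with Smo2, against 8.68, 8.35 and 8.32 without (-0.94, adjusted p = 0.00571), although 1 of its 3 probe sets had a change of -0.08 (adjusted p = 0.605 with all probe sets fitted). C1qa had 6.29, 6.27 and 5.45 with Smo2, against 8.08, 7.07 and 6.71 without (-1.29 ± 0.40, adjusted p = 0.0286), and was not called without no-Smo2 replicate 2 (adjusted p = 0.0513) or Smo2 replicate 3 (adjusted p = 0.0825). C1qc, which was not tested, had 5.35, 4.00 and 5.96 with Smo2, against 6.73, 6.83 and 6.64 without, and Aif1 4.91, 5.14 and 4.81 with Smo2, against 6.34, 6.04 and 5.45 without. Cx3cr1 averaged 5.52 ± 0.73 with Smo2 and 5.33 ± 0.11 without. Of 5 further microglial genes 4 were lower, among them Ptprc (-1.58), Cd53 (-1.07) and Ctss (-1.08).

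The GABAergic genes were lower as a group except for Pvalb. Gad1 had 10.20, 10.28 and 10.08 with Smo2, against 11.57, 11.63 and 11.58 without (-1.40 ± 0.07, adjusted p = 1.18e-05), and Gad2 had 5.36, 5.59 and 5.61 with Smo2, against 6.78, 6.69 and 6.72 without (-1.21 ± 0.08, adjusted p = 4.47e-05). Slc32a1 had 7.28, 7.33 and 6.98 with Smo2, against 8.84, 8.67 and 8.76 without (-1.56 ± 0.11, adjusted p = 4.51e-05). Calb1 was 6.63, 6.68 and 6.66 with Smo2, against 7.16, 7.46 and 7.56 without (-0.74, adjusted p = 0.00124). Pvalb, too dim over the whole series to be tested, had 8.05, 7.99 and 8.22 with Smo2, against 4.73, 4.00 and 4.00 without. The arrays of replicates 2 and 3 without Smo2 were at the floor, so the difference of 3.85 is set in part by the floor, and the gene passed in a fit without the filter (adjusted p = 0.000295). The group without Smo2 had the lowest mean Pvalb level of the 6 groups, 4.24. All 4 further interneuron genes tested were lower, with Tfap2b (-1.19) the farthest. Of 5 further Purkinje genes 2 were higher and 3 lower, among them Pcp4 (-1.52), and both unipolar brush cell genes, Eomes (-1.76) and Calb2 (-1.54), were lower. Pcp2 averaged 5.08 ± 0.41 with Smo2 and 4.90 ± 0.85 without.

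Of the fibroblast, pericyte and endothelial markers tested, Dcn was called higher and the other 6 were not called. Dcn had 5.72, 6.58 and 6.30 with Smo2, against 5.20, 4.00 and 5.21 without (1.40 ± 0.39, adjusted p = 0.0179), at levels near the floor. It was not called without Smo2 replicate 2 or 3 (adjusted p = 0.0564 and 0.0541), nor with the floor raised to 64 (0.29, adjusted p = 0.110). Col1a1, Col1a2, Col3a1 and Pdgfrb had changes of -0.27 to 0.21, Lum 0.84 and Kdr -0.39, none of them called. With every probe set fitted, at least 1 Col1a2 probe set was called lower. Lum was called without no-Smo2 replicate 2 (1.11, adjusted p = 0.0329) or Smo2 replicate 1 (1.10, adjusted p = 0.0358). The class median of 0.13 was -0.02 with the deposited scaling alone. Rgs5, Pecam1 and Cldn5 overlapped between groups. Of 4 further endothelial genes Egfl7 (1.05) and Ramp2 (0.61) were called higher, and Esam and Eng had changes of 0.71 and 0.61 that were not called. Of 8 further fibroblast and pericyte genes 4 were higher, led by Islr (3.56), Fn1, fibronectin (0.66), Col5a1 (0.36) and Igf2 (1.89). In the granule lineage, with a mean of 11.80 with Smo2 and 12.38 without, 15 of 17 genes were lower and Atoh1, the transcription factor of granule cell progenitors, was higher (1.74, adjusted p = 1.12e-05), and the skeletal muscle gene Actc1 was higher (2.09). Their part in the marker changes was not tested.

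Across the 3 experiments the same probe sets stood at different heights, which is given as a description because no group was shared between experiments. The fibroblast and pericyte mean over 6 genes was 9.80 in Chd7 mutant and 8.94 in Chd7 control cells, 7.41 with ICRF-193 and 7.64 with DMSO, and 6.39 with and 6.01 without Smo2. The microglial mean over 5 genes was 7.82 in Chd7 mutant and 8.64 in Chd7 control cells, 8.44 with ICRF-193 and 8.83 with DMSO, and 6.85 with and 7.94 without Smo2. Fibroblast markers were thus highest in the Chd7 experiment and lowest in the Smo2 experiment. The microglial mean of the mutant joins replicate pairs at 6.45 and 9.20, and its first pair lay below the mean with Smo2. The oligodendrocyte lineage mean over 8 genes was 9.91 in Chd7 mutant and 8.92 in Chd7 control cells, 8.23 with ICRF-193 and 9.07 with DMSO, and 8.43 with and 8.94 without Smo2. The Chd7 control value joins replicate pairs at 9.50 and 8.34. Gpr17 and Cnp were lower in both treated groups and higher in mean in the mutant, while Pdgfra was higher in mean in all 3, although its ICRF-193 change did not pass. Gja1 was called higher in the mutant and with Smo2, and had 9.18 ± 0.19 with ICRF-193 and 9.17 ± 0.37 with DMSO.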

How the data were processed

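Total RNA of 22 samples was labelled and hybridised to Affymetrix whole-genome mouse arrays. The authors deposited 1 signal intensity for each of 45101 probe sets per array, on a linear scale. The deposited intensities had been scaled to a mean of 500 after trimming 2% at each end, and no source used here names the software that summarised the probes. Array medians lay between 6.33 and 6.81 on the log2 scale, and the number of arrays limits the precision. No 2 of the 231 pairs of arrays were identical.

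Intensities under 16 were set to 16, turned to log2 and quantile normalized over all arrays. Of the probe sets 34958 carried 1 symbol in the platform annotation, 932 several and 9211 none, and each gene was read from the brightest of those with 1 symbol. Genes were tested if their mean reached 6.44, the median of the probe set means, using limma 3.58.1 (lmFit and eBayes) in R 4.3.3, each comparison on its own groups, with Benjamini-Hochberg adjustment over all 10772 genes tested. Changes are the mutant or treated group minus its control on the log2 scale, ± SE. The fit was run on simulated data with independent arrays. That simulation left out the likeness within replicate pairs, so it cannot show whether the p-values hold for such pairs.

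The members and all marker lists were chosen with earlier results of these data known. Values on every array are given for markers called, or apart between groups by at least 1, and for others (such as Calb1, Csf1r, Tyrobp, Gdf10 and Cldn5) chosen after their values were seen. Of further marker lists at most 4 genes each are named, by smallest adjusted p.

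The labels number the arrays of each group. Deviations from the group means of same-numbered arrays correlated at 0.39 to 0.42 in the Chd7 experiment and 0.28 to 0.41 in the ICRF-193 experiment, over genes, and at -0.01 to 0.03 in the Smo2 experiment. Arrays of the same replicate pair with other numbers correlated as closely, at 0.38 to 0.44 and 0.30 to 0.35. Alternatives were the deposited scaling alone, arrays centred on their medians, a floor of 64, no filter, every probe set, the replicate number or replicate pair as a block, each pair alone, pair means, all 6 groups in 1 fit, the methods' t-test, and leaving out each array. The labels name no batch for the replicate pairs.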

Additional observations from a re-analysis of the deposited data

Results flagged for a closer look

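For 9 markers the change between Chd7 mutant and control cells differed between replicate pairs, by limma's test of the interaction. Given as the change in replicates 3 and 4 minus that in replicates 1 and 2, the difference was -2.33 for Calb1, 1.69 for C1qb, 1.35 for Csf1r, 1.23 for Mbp, 1.11 for Fabp7, 1.07 for Aqp4, 1.06 for Slc32a1, 0.83 for Cnp and 0.82 for Scrg1. Calb1 was the only one of the 9 with a change of over 1 in each direction.

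In a group of 4 arrays, a single array stood apart for 2 of 136 combinations of marker and group. The chance rate of about 1 in 20 holds for independent arrays. These arrays fell into pairs, so that rate does not apply and the count cannot be set against it. For Pdgfrb in Chd7 mutant cells, the gap of replicate 2 (8.53) to the nearest other array was 0.963 of the range of the group, and the others lay at 8.98 to 8.99. For Pdgfra with DMSO, the gap of replicate 3 (11.46) was 0.909 of the range, and the others lay at 10.72 to 10.79. Both exceed the critical value of Dixon's test for 4 samples.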

How the results depend on the processing

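Changes of single markers were recomputed 1224 times, of which 31 fell short of the threshold and 60 newly passed it. In 65, over 24 combinations of marker and comparison, the sign was another, and 0 of these were called with either setting. The 1224 cover the deposited scaling alone, arrays centred on their medians, the raised floor, either block and leaving out each array. Fits within a replicate pair, pair means, all 6 groups in 1 fit, the methods' t-test, no filter and every probe set were not counted. The 31 therefore leaves out calls lost in those fits, some of which lost many, as the counts below show. Within replicate pairs Calb1 was called in opposite directions in the Chd7 comparison (1.18 and -1.15). In the Chd7 comparison, 5 markers were called higher and 0 lower, where 546 and 412 of all genes were. The count of higher markers was 3 without the filter, 17 with the replicate number as a block, 19 with the replicate pair as a block, 18 within replicates 1 and 2, 22 within replicates 3 and 4, 0 with pair means, 9 with all 6 groups in 1 fit, and 9 by the methods' t-test or 1 after Benjamini-Hochberg. In the same order, the counts over all genes were 472, 856, 1354, 638, 934, 0, 817, and 1439 or 434. The count of lower markers was 1 with arrays centred on their medians, 2 and 3 with the number and the pair as a block, 5 and 3 within the pairs, and 1 by the methods' t-test. Over all genes it was 551, 555 and 1010, 481 and 569, and 1295, in that order. With ICRF-193, 0 were called higher and 3 lower, where 338 and 373 of all genes were. The higher count was 1 with the deposited scaling alone, with the pair as a block, within replicates 1 and 2, with all 6 groups or with every probe set, and 2 with the number as a block or by the methods' t-test. In that order, leaving out the fit of every probe set, 344, 649, 123, 653, 461 and 1109 of all genes were called higher. The lower count was 9 with either block and by the methods' t-test, 0 within replicates 1 and 2, and 1 with pair means. Over all genes it was 486 with the number and 614 with the pair as a block, and then 945, 181 and 45. With Smo2, 7 were called higher and 20 lower, 7 and 21 with the replicate number as a block, and all 6 groups in 1 fit called 10 lower. Over all genes these counts were 3196 and 4197, 3079 and 4064, and 3799. Lost in the fit of all 6 groups were Gfap, Slc1a3, Aldh1l1, Fabp7, Calb1 and all 5 tested microglial genes. Leaving out each array gave 3 to 4 higher and 0 to 1 lower for Chd7, 0 to 1 higher and 2 to 4 lower for ICRF-193, and 5 to 8 higher and 19 to 20 lower for Smo2. Over all genes it gave 311 to 400 higher and 215 to 320 lower for Chd7. For ICRF-193 it gave 217 to 282 and 262 to 320, and for Smo2 2948 to 3061 and 3861 to 3924. The cause of these differences was not tested. Levels at the floor are upper limits: Pecam1 was there on 11 of 22 arrays and Mog on 7.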
